A study of Homo sapiens with 23 samples.

Results

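The 33 genes described here encode the enzymes that make cholesterol and fatty acids and the proteins that control them, chosen as the rows of the deposited table that carry their names, of 21463 gene rows in all. They comprise 7 genes of the mevalonate pathway, 12 of the sterol branch, 6 that control the pathway through SREBP or carry sterols, and 8 of fatty acid synthesis and desaturation. RNA came from PC-3, an established line from a prostate cancer metastasis, transduced with a lentivirus that places PARG cDNA with a cleavable mClover3 fluorescent tag behind a TetOne promoter that doxycycline switches on. PARG is the enzyme that degrades poly(ADP-ribose). Each of 2 single clones, I4 and H6, was grown for 72 h with 500 ng/ml doxycycline or without it, in experiment N (passage 5) and again in experiment B (passage 7). This gave 8 groups and 23 libraries, with 3 wells a group except 2 for untreated H6 in experiment B. All groups carry the construct, each genotype is 1 clone, and no group received doxycycline without the construct, so responses to the drug and to PARG cannot be told apart here. The wells of a group are cultures of the same clone.

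Cholesterol is built from acetyl-CoA through mevalonate, isoprenoid diphosphates and squalene to lanosterol, which a series of membrane enzymes trims and reduces to cholesterol. Transcription of most of these enzymes is driven by the SREBP factors, made as membrane proteins of the endoplasmic reticulum from SREBF1 and SREBF2. SCAP escorts the precursors to the Golgi for cleavage when sterols are scarce, and the INSIG proteins hold SCAP back when sterols are plentiful. The product of SREBF2 acts mainly on sterol genes and one product of SREBF1 mainly on fatty acid genes, a programme that prostate cancer cells often run at a high level.

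For each comparison of doxycycline with none, the table gives the larger group mean, a signed fold and an adjusted p, called q below. The unit of the mean is not named and was read from its values as RPKM (read density scaled to exon length and library size). No value per library is given, so each value stands for a group, and q is the authors' own measure of error. The other group's level was taken as the higher level divided by the fold. Directions rest on PARG being higher with doxycycline: the authors' deposited table gives PARG folds of 1.35 (experiment N) and 1.4 (experiment B) for I4, and of 2.15 and 1.99 for H6. The smallest steps between low levels, read as RPKM, were taken as 1 read in 1 of 3 libraries. On that reading the depth was about 33.6 to 43.2 M reads a library in experiment N and 19.8 to 26.5 M in B. Of 8 prostate and epithelial markers 5 reached a mean of 1 RPKM (KRT18 at 115 and KRT8 at 40.2). CDH1 on that list had a mean of only 0.363 RPKM. The luminal marker KLK2 was listed at 0 and KLK3 at 0.00695 or less in every comparison. The blood cell markers summed to 0.173 to 0.276 RPKM. Among fibroblast markers COL1A1 had a mean of 11.5 RPKM, LUM 0.392 and COL1A2 0.25, while DCN was near 0. The endothelial marker PECAM1 had a mean of 1.015 RPKM, with 0.845 (I4) and 0.719 (H6) in experiment N and 1.34 and 1.16 in B. VWF and CDH5 were near 0. In such bulk RNA a lower level per cell and fewer cells with the transcript cannot be told apart.

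Most of these genes were not called in any comparison, and 1 had a large response. A gene is called here when the authors' q is under 0.05. Of the 33 genes, 9 were called in I4 in experiment N (27.3%; 2 higher, 7 lower), where 15.7% of all tested genes and 22.9% of those of at least 1 RPKM were called (10.4% higher, 12.6% lower). In H6 in experiment N 5 were called (15.2%; 2 higher, 3 lower), against 13.6% of all genes and 20.3% of those of at least 1 RPKM (9.77% higher, 10.5% lower). In I4 in experiment B 5 were called (15.2%; 3 higher, 2 lower), against 14.0% and 19.1% (10.1% higher, 9.02% lower). In H6 in experiment B 2 were called (6.06%; both higher), against 7.56% and 10.3% (4.93% higher, 5.35% lower). As every one of the 33 exceeded 1 RPKM on average, the second share is the closer background, and the counts lie near it. Of the 33, 22 were called in no comparison, against 61.4% of genes of at least 1 RPKM, 1 (TM7SF2) was called in all 4, 1 (SQLE) in 3, 5 in 2 and 4 in 1, and none was called in both directions.

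**Figure D1:**
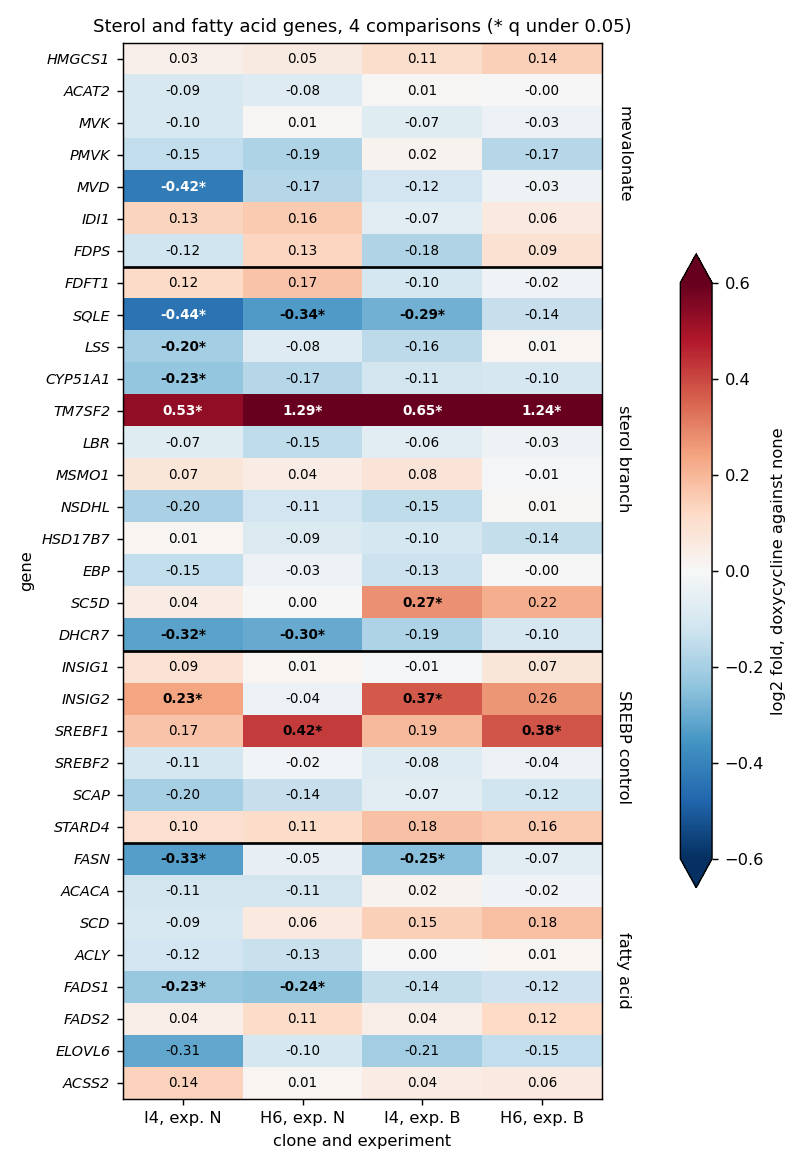
Log2 fold with doxycycline (colour and number) for each of the 33 genes (rows, grouped by role) in the 4 comparisons (columns), from the authors' deposited table; an asterisk marks q under 0.05. TM7SF2 stands out at 0.53 to 1.29 in the 4 columns. SQLE and DHCR7 are below 0 in all 4 columns, with asterisks in both clones in experiment N, while FASN has asterisks in the I4 columns only. Colours beyond -0.6 and 0.6 are saturated.

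TM7SF2 encodes a reductase of the sterol nucleus that acts just after lanosterol is demethylated, a step that LBR, better known as a receptor of the nuclear lamina, can also carry out. In I4 the TM7SF2 level went from 5.26 to 7.61 RPKM in experiment N and from 3.16 to 4.95 in experiment B. In H6 it went from 6.03 to 14.7 RPKM in experiment N and from 4.25 to 10.0 in experiment B. The treated group was thus the higher one each time, and the treated H6 level exceeded the treated I4 level in both experiments. The folds in the authors' deposited table were 1.45 (q = 9.02e-05) and 1.57 (q = 7.3e-05) in I4 and 2.44 and 2.36 in H6 with a q listed as 0. Among genes of at least 1 RPKM, 2.27% were called higher in all 4 comparisons. Outside TM7SF2 the largest fold of any member in either direction was 1.36.

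To judge average effects against the spread between experiments, limma was fitted to the 4 log2 folds of 10752 genes, with clone as a term. TM7SF2 averaged 0.93 on the log2 scale (SE 0.03, 95% interval 0.84 to 1.01, limma adjusted p = 9.39e-05). The H6 response exceeded the I4 response by 0.67 log2 units (SE 0.07, 95% interval 0.50 to 0.84), a difference that passed the limma test (adjusted p = 0.026). Of all genes 0.856% passed that test (0.502% with H6 above I4, 0.353% below). The difference was 0.75 in experiment N and 0.59 in experiment B. Without the I4 comparison of experiment N it was 0.61 with a limma adjusted p of 0.0507, and over all 8 alternatives the adjusted p ran from 9.88e-10 to 0.0507. PARG itself was induced more in H6 (above), and the part of that difference in the TM7SF2 response was not tested.

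TM7SF2 (ENSG00000149809) lies on chromosome 11 from 65111845 to 65116384 on the plus strand of GRCh38. It shares 16 exon bases with VPS51 upstream and none with an opposite-strand gene. Of its neighbours within 20000 bases the table holds values for VPS51, ZNHIT2, FAU, SYVN1 and MRPL49. Of these only SYVN1 was called, in H6 in experiment N, at a fold of 1.16 in the authors' deposited table (q = 0.0212), and VPS51 was between 1.08-fold lower and 1.06-fold higher there. LBR, the paralogous reductase, was 1.05-fold lower in I4 in both experiments and 1.11-fold and 1.02-fold lower in H6 in the authors' deposited table (q from 0.183 to 0.999967). Its level of 11.5 to 15.9 RPKM was above that of TM7SF2 in every untreated group, and in treated H6 cells of experiment N TM7SF2 reached 14.7 against 12.2 RPKM for LBR.

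The promoter windows of TM7SF2, the gene with the largest response, of SREBF1, the factor gene called higher in H6, and of INSIG1, the gene that differed most between the untreated clones, are shown to let the regions be compared. Each runs from 250 bases before to 50 after the RefSeq start on GRCh38.p14, 5′ to 3′ on the gene's own strand: chr11:65111622-65111921 (plus), chr17:17836937-17837236 (minus) and chr7:155297628-155297927 (plus). Capitals mark the CCAAT box on either strand, which binds the factor NF-Y, a usual partner of SREBP.
TM7SF2: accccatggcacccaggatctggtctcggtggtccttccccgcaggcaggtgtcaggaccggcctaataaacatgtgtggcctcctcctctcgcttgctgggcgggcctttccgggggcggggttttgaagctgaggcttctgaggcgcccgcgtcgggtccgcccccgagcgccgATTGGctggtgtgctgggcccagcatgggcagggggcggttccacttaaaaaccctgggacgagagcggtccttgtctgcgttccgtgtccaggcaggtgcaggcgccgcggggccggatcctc
SREBF1: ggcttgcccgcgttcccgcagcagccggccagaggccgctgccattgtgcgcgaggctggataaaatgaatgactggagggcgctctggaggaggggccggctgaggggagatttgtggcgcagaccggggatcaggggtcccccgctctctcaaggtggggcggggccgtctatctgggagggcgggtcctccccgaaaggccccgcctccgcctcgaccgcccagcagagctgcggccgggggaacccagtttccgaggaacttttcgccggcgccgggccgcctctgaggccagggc
INSIG1: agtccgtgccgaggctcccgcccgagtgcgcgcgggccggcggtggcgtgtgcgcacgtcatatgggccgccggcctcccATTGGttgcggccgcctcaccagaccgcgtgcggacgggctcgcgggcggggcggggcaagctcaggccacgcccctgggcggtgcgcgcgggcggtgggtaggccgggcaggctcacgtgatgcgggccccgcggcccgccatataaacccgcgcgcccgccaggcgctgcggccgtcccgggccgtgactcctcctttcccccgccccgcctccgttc
The TM7SF2 window has 1 CCAAT box, at position -74 from the start, and the INSIG1 window has 1 at -170, both read on the opposite strand. The SREBF1 window has none. A single start was used for each gene, so any other start of SREBF1 was not searched.

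RefSeq windows were matched for 29 of the 33 genes. The entries without a match were ACAT2, FDFT1, SQLE and FASN. CCAAT on either strand was found in 18 of the 29 (62.1%) and in 35.7% of 27305 windows of the same length. NSDHL and MVK held 5 each, MSMO1 4 and FDPS, MVD and EBP 3 each. The SREBP element, searched as TCACNCCAC on either strand, was found in the SREBF2 window alone (3.45% of the 29), at -133, and in 1.15% of all windows. The GC box GGGCGG was present in 26 of the 29 (89.7%) against 44.6% of all windows, and the E-box CACGTG, which SREBP can also bind, in 4 (LSS, SC5D, INSIG1 and SCAP; 13.8%) against 7.43%. Each motif was searched on both strands, and no matches of different motifs overlapped in the 29 windows. The 27305 windows were not limited to genes expressed in these cells, whereas all 29 members exceeded 1 RPKM on average. Shares among expressed genes alone were not counted. Such matches describe letters only.

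Among the 7 mevalonate pathway genes a single call was made. MVD, which decarboxylates mevalonate diphosphate, went from 8.97 to 6.70 RPKM in I4 in experiment N, 1.34-fold lower in the authors' deposited table (q = 0.00187). In the other comparisons MVD was 1.12-fold, 1.08-fold and 1.02-fold lower (H6 in N, I4 in B, H6 in B; q of at least 0.422 in the authors' deposited table). HMGCS1, which makes the HMG-CoA that enters the pathway, was 1.02-fold to 1.1-fold higher throughout without a call. ACAT2 (cytosolic thiolase), MVK and PMVK (kinases) and IDI1 (isopentenyl diphosphate isomerase) lay between 1.14-fold lower and 1.11-fold higher. Of the ACAT2 exon bases 69.7% are shared with genes of the opposite strand, among them SOD2 and TCP1, which matters for the libraries of experiment N that keep both strands.

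FDPS, which joins isoprene units to farnesyl diphosphate, was the most abundant of the 33 at a mean of 88.9 RPKM. In I4 its level went from 74.7 to 68.8 RPKM in experiment N and from 81.1 to 71.7 in experiment B. In H6 it went from 85.7 to 93.6 RPKM in experiment N and from 99.6 to 106 in experiment B. FDPS folds were thus above 1 in both H6 comparisons and below 1 in both I4 comparisons. No single comparison was called (q from 0.0831 to 0.80 in the authors' deposited table), and the clone difference did not pass (limma adjusted p = 0.16). The share of all genes with such a split of signs was not counted. FDPS exons share 693 bases (18.6%) with RUSC1-AS1 on the opposite strand, which matters for the libraries of experiment N that keep both strands.

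In the sterol branch the members called lower were SQLE, DHCR7, CYP51A1 and LSS. SQLE, the squalene epoxidase that limits flux into sterols, went from 19.5 to 14.3 RPKM in I4 and from 22.8 to 18.1 in H6 in experiment N. In experiment B it went from 21.2 to 17.4 RPKM in I4 and from 22.4 to 20.4 in H6. All 4 treated groups were below their controls. The folds in the authors' deposited table were 1.36 lower (q = 2.44e-08) and 1.22 lower (q = 0.00171) in I4 and 1.26 lower (q = 5.18e-05) and 1.1 lower (q = 0.498) in H6, in N and B. Its average was -0.30 log2 units (SE 0.05, 95% interval -0.42 to -0.19, limma adjusted p = 0.00687).

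DHCR7, the reductase of the last step to cholesterol, was called in both clones in experiment N. Its level went from 23.0 to 18.4 RPKM in I4 and from 26.5 to 21.5 in H6 there, and from 14.5 to 12.7 and from 19.0 to 17.7 in experiment B. In experiment N it was 1.25-fold lower in I4 (q = 9.46e-05) and 1.23-fold lower in H6 (q = 0.00028) in the authors' deposited table, against 1.14-fold (q = 0.0978) and 1.07-fold (q = 0.766) in experiment B. The average was -0.23 (SE 0.04, limma adjusted p = 0.0148).

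CYP51A1, the lanosterol demethylase, and LSS, the cyclase that makes lanosterol, were called only in I4 in experiment N, at 1.17-fold lower (q = 0.0109) and 1.15-fold lower (q = 0.03) in the authors' deposited table. In H6 in N, I4 in B and H6 in B, CYP51A1 was 1.13-fold, 1.08-fold and 1.07-fold lower, and LSS was 1.06-fold lower, 1.12-fold lower and 1.01-fold higher. Their averages of -0.15 and -0.11 passed (limma adjusted p = 0.0202 and 0.0472). CYP51A1 did not pass without I4 or without H6 in experiment N (adjusted p up to 0.0926), and LSS under 6 of 8 alternatives, each left-out comparison among them (up to 0.291). Of the CYP51A1 exon bases 86.0% are shared with other annotated genes, most of them a same-strand readthrough model, so its count may have been split. SC5D, a desaturase acting late in the pathway, was called higher in I4 in experiment B, from 7.95 to 9.61 RPKM (1.21-fold, q = 0.014 in the authors' deposited table), and was 1.16-fold higher without a call in H6 there (q = 0.207). In experiment N SC5D had folds of 1.03 and 1.00. NSDHL, a dehydrogenase that helps remove the methyl groups of lanosterol, was called in no comparison, at 1.15-fold and 1.11-fold lower in I4, 1.08-fold lower in H6 in N and 1.01-fold higher in H6 in B. Its average of -0.11 passed (limma adjusted p = 0.0446) but did not under 6 of 8 alternatives, each left-out comparison among them (up to 0.295). FDFT1 (squalene synthase), MSMO1 and HSD17B7 (which act with NSDHL) and EBP (an isomerase) were not called in any comparison and stayed between 1.11-fold lower and 1.13-fold higher.

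Of the genes that control the pathway, SREBF1 and INSIG2 were called. SREBF1 went from 9.20 to 10.4 RPKM in I4 and from 11.8 to 15.7 in H6 in experiment N, and from 3.5 to 4.0 and from 5.22 to 6.79 in experiment B. Treated levels were above control in all 4, with the larger steps in H6. The authors' deposited table gives 1.34-fold (q = 8.55e-08) and 1.3-fold (q = 0.000568) in H6 and 1.13-fold (q = 0.0973) and 1.14-fold (q = 0.142) in I4. The average was 0.29 log2 units (SE 0.03, 95% interval 0.22 to 0.36, limma adjusted p = 0.0019). H6 exceeded I4 by 0.22 (SE 0.06, 95% interval 0.07 to 0.36), which did not pass (limma adjusted p = 0.202; 0.00283 with experiment as a block). The single deposited row for SREBF1 does not separate its isoforms, and the annotated exons of SREBF1 share 556 bases with RAI1 on the opposite strand.

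INSIG2, a retention factor for SCAP, went from 7.44 to 8.75 RPKM in experiment N and from 6.59 to 8.51 in experiment B in I4. Both steps were called, at 1.18-fold (q = 0.026) and 1.29-fold (q = 0.000522) in the authors' deposited table. In H6 it was 1.03-fold lower in experiment N and 1.20-fold higher in B (q of 0.999929 and 0.378 in the authors' deposited table), so the H6 values did not share a sign. The average of 0.21 passed (SE 0.06, limma adjusted p = 0.04) but did not under 4 of 8 alternatives (up to 0.113). INSIG1, itself a classic SREBP target, stayed within 1.06-fold. SREBF2 was 1.01-fold to 1.08-fold lower and STARD4, a cytosolic sterol carrier, 1.07-fold to 1.13-fold higher, neither with a call. SCAP had folds of 1.15 and 1.05 (I4) and of 1.1 and 1.08 (H6), all lower and without a call, and its average of -0.13 passed (limma adjusted p = 0.0322) but did not under 4 of 8 alternatives (up to 0.12).

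**Figure D2:**
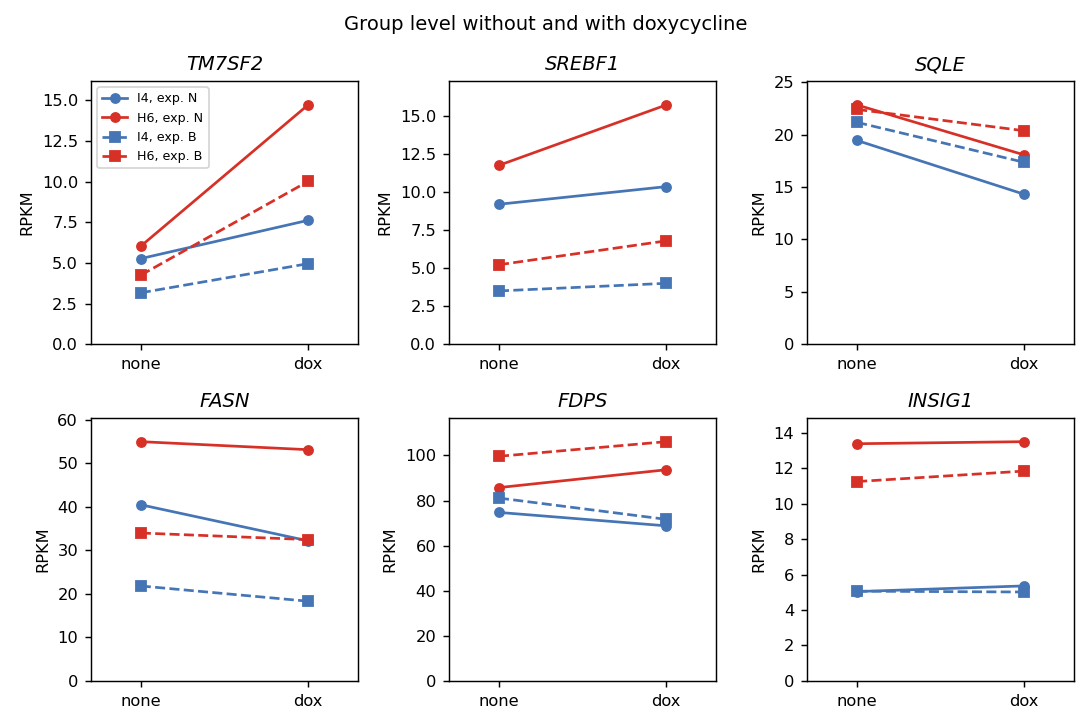
Group level on the RPKM scale without and with doxycycline (dox) for 6 genes; red lines are H6, blue lines I4, solid lines experiment N and dashed lines experiment B, and each point is a group level with no error available. TM7SF2 and SREBF1 slope upward most steeply in H6, SQLE slopes down in all 4 lines, FASN slopes down most in the blue lines, FDPS lines of the clones slope in opposite directions and INSIG1 is flat with H6 at 11.2 to 13.5 and I4 at 5.02 to 5.36 RPKM.

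The few calls among the 8 fatty acid genes were all lower. In I4 and H6 in N, then in B, they made up 25.0%, 12.5%, 12.5% and 0% of the list. Among all genes of at least 1 RPKM, 12.6%, 10.5%, 9.02% and 5.35% were called lower and 10.4%, 9.77%, 10.1% and 4.93% higher. With 8 genes such counts do not set a direction for the list. FASN, the fatty acid synthase, went from 40.5 to 32.2 RPKM in experiment N and from 21.8 to 18.3 in experiment B in I4, and from 55.0 to 53.2 and from 34.0 to 32.5 in H6. I4 was 1.26-fold (q = 2.25e-05) and 1.19-fold lower (q = 0.00395) in the authors' deposited table, and H6 1.03-fold (q = 0.867) and 1.05-fold lower (q = 0.958). The average was -0.17 (SE 0.03, limma adjusted p = 0.00888). The clones differed by 0.23 (H6 minus I4, SE 0.06, 95% interval 0.09 to 0.38), which did not pass (limma adjusted p = 0.179; 5.12e-05 with experiment as a block).

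FADS1, a desaturase of polyunsaturated fatty acids, was called in both clones in experiment N. It went from 14.8 to 12.7 RPKM in I4 and from 18.4 to 15.6 in H6, each about the same step (1.17-fold, q = 0.00971, and 1.18-fold, q = 0.00633, lower in the authors' deposited table). In experiment B it was 1.11-fold (q = 0.217) and 1.09-fold lower (q = 0.561). The average was -0.18 (SE 0.03, limma adjusted p = 0.0125; 0.0526 without the H6 comparison of experiment N). FADS2, its neighbour on chromosome 11, was 1.03-fold to 1.09-fold higher in all 4 without a call. The 2 genes lie on opposite strands and share 490 exon bases, so unstranded reads there cannot be assigned.

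The other fatty acid genes were called in no comparison. ELOVL6, the elongase of saturated chains and the lowest of the 33 at a mean of 1.83 RPKM, had lower levels by folds of 1.24 and 1.16 (I4) and of 1.08 and 1.11 (H6), with an average of -0.19 that passed (limma adjusted p = 0.0321) but did not under 3 of 8 alternatives (up to 0.122). SCD, the stearoyl-CoA desaturase, lay between 1.07-fold lower and 1.13-fold higher. ACLY, which supplies cytosolic acetyl-CoA, and ACACA, which carboxylates it, lay between 1.1-fold lower and 1.01-fold higher, and ACSS2, which activates acetate, was 1.01-fold to 1.1-fold higher.

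Set side by side, the 19 sterol enzymes (mevalonate and sterol branch) and the 8 fatty acid genes had like medians in 3 comparisons. In I4 in experiment N the median log2 fold was -0.10 for sterol enzymes and -0.11 for fatty acid genes, against -0.01 for all genes of at least 1 RPKM. In H6 in experiment N it was -0.08 for both lists, against -0.01. In I4 in experiment B it was -0.10 for sterol enzymes and 0.01 for fatty acid genes, against 0.00 for all genes. In H6 in experiment B the medians were -0.01 for both lists, against 0.01. Sterol enzymes had 1 call higher and 5 lower, 1 and 2, 2 and 1, and 1 and 0 in the same order, and fatty acid genes 0 higher and 2, 1, 1 and 0 lower. All genes of at least 1 RPKM had 10.4%, 9.77%, 10.1% and 4.93% called higher and 12.6%, 10.5%, 9.02% and 5.35% lower. The highest sterol value in each comparison was TM7SF2, and without it the remaining 18 had medians of -0.11, -0.08, -0.10 and -0.02. The difference between the lists was not tested, since members were chosen with earlier results known.

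**Figure D3:**
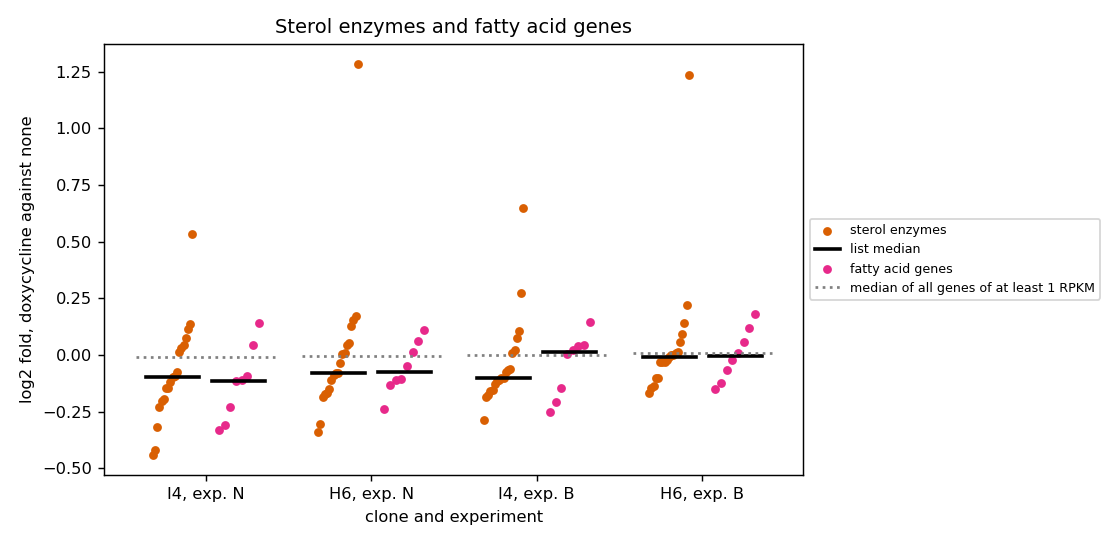
Log2 fold of each sterol enzyme (orange) and fatty acid gene (pink) in the 4 comparisons, with list medians (black) and the median of all genes of at least 1 RPKM (dotted). Apart from TM7SF2, at 0.53 to 1.29, the points of both lists lie between -0.44 and 0.27.

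On average over both clones 12 of the 33 genes passed the limma test (36.4%; 3 higher, 9 lower), against 34.2% of the 10752 genes (16.7% higher, 17.5% lower). The higher ones were TM7SF2, SREBF1 and INSIG2, and the lower ones SQLE, FASN, FADS1, DHCR7, CYP51A1, ELOVL6, SCAP, NSDHL and LSS. TM7SF2, SREBF1, SQLE, FASN and DHCR7 kept their call under all 8 alternatives and the other 7 lost it under 1 (FADS1), 2 (CYP51A1), 3 (ELOVL6), 4 (INSIG2 and SCAP) or 6 (NSDHL and LSS). Leaving out the H6 comparison of experiment N brought the count to 7, with FADS1, CYP51A1, ELOVL6, SCAP, NSDHL and LSS not passing (limma adjusted p from 0.0526 to 0.295). INSIG2 did not pass without the I4 or without the H6 comparison of experiment B (0.0982 and 0.113), with a minimum of 0.1 RPKM (0.0502) or with no trend on level (0.0523). With experiment as a block the count was 27 (10 higher, 17 lower) against 64.2% of all genes (31.9% higher, 32.3% lower).

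Folds were compared between the clones next. Both H6 folds were above both I4 folds for 11 of the 33 genes, against 23.1% of genes of at least 1 RPKM, and below both for 2 (PMVK and MSMO1), against 22.3%. The 11 were MVK, FDPS, LSS, TM7SF2, NSDHL, EBP, SREBF1, SREBF2, FASN, FADS2 and ELOVL6. TM7SF2 was the only one to pass the limma test of the difference, against 0.856% of all genes; 4 of the 33 had an unadjusted limma p under 0.05. FDPS differed by 0.26 log2 units (SE 0.06, 95% interval 0.11 to 0.41), with 0.25 in experiment N and 0.27 in experiment B, and did not pass (limma adjusted p = 0.16; 2.55e-06 with experiment as a block). With experiment as a block 11 passed (9 with H6 above I4, 2 below), against 24.3% of all genes (13.4% above, 10.9% below). The block fit left 1 residual degree of freedom, so its error came mostly from the spread shared over all genes. SQLE differed by 0.13 (95% interval -0.10 to 0.36), which did not pass (limma adjusted p = 0.594), but passed with experiment as a block (interval 0.04 to 0.21, limma adjusted p = 0.0227). DHCR7 differed by 0.05 (95% interval -0.17 to 0.27) and passed neither fit (-0.03 to 0.13 with experiment as a block, limma adjusted p = 0.398).

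**Figure D4:**
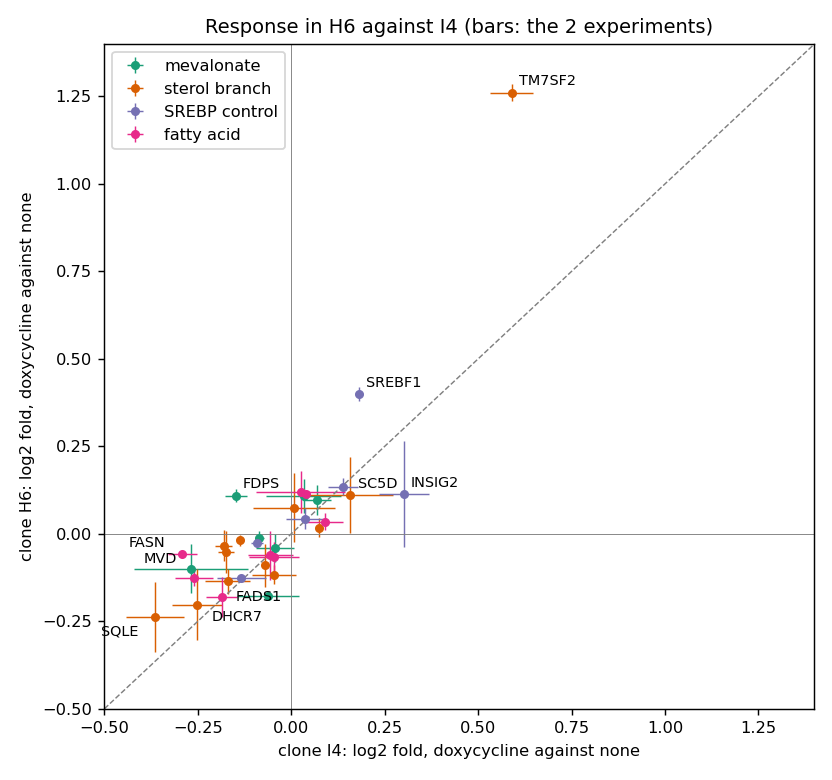
Mean log2 fold of each gene in H6 (vertical) against I4 (horizontal); bars span the 2 experiments, colours give the gene group and the dashed line marks equal response. TM7SF2 lies well above the line at about 0.59 in I4 and 1.26 in H6, FDPS lies left of 0 in I4 and above 0 in H6, and SQLE and DHCR7 are low in both.

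Without doxycycline 27 of the 33 genes were higher in H6 than in I4 in both experiments, against 45.2% of genes of at least 1 RPKM, and 5 (PMVK, LBR, INSIG2, SCAP and ELOVL6) were lower in both, against 34.4%. SC5D changed sign. In a limma fit to the untreated levels within each experiment 29 passed, against 42.9% of all genes: 25 were higher in H6 (75.8%, against 24.5%) and 4 lower (12.1%, against 18.4%). With a single pair of clones in each of 2 experiments this fit took its error wholly from the trend over all genes of like level, so it may be too small for genes that vary more than most. The wells are of 1 clone each, so the difference describes these clones.

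INSIG1 showed the largest gap. Its untreated level was 5.04 RPKM in I4 and 13.4 in H6 in experiment N, and 5.06 and 11.2 in experiment B, 2.43 times as high on average (95% interval 2.18 to 2.70). The groups of the clones did not overlap. The gap was of like size with doxycycline, at 1.33 and 1.24 log2 units against 1.41 and 1.15 without it. SCD was 33.7 RPKM in I4 and 59.9 in H6 in experiment N and 36.3 and 67.3 in experiment B (1.82 times, 95% interval 1.65 to 2.0).

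STARD4 and MVK followed, with 1.81 times (1.59 to 2.07) and 1.68 times (1.5 to 1.87) the I4 level. MSMO1, FASN, IDI1, FDFT1, MVD and SREBF1 were 1.56, 1.45, 1.44, 1.41, 1.39 and 1.38 times as high. SREBF2 itself was 1.18 times as high (95% interval 1.06 to 1.31, limma adjusted p = 0.00538). INSIG2 and the escort gene SCAP were lower in H6, unlike INSIG1, the other retention gene: INSIG2 was at 0.73 times (0.66 to 0.81) and SCAP at 0.73 times (0.66 to 0.80) the I4 level, with PMVK at 0.84 and LBR at 0.81. SQLE, CYP51A1, SC5D and ELOVL6 did not pass (limma adjusted p from 0.0703 to 0.656). Of the 19 sterol enzymes 14 passed as higher in H6 and 2 as lower, and of the 8 fatty acid genes 7 passed as higher and 0 as lower.

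**Figure D5:**
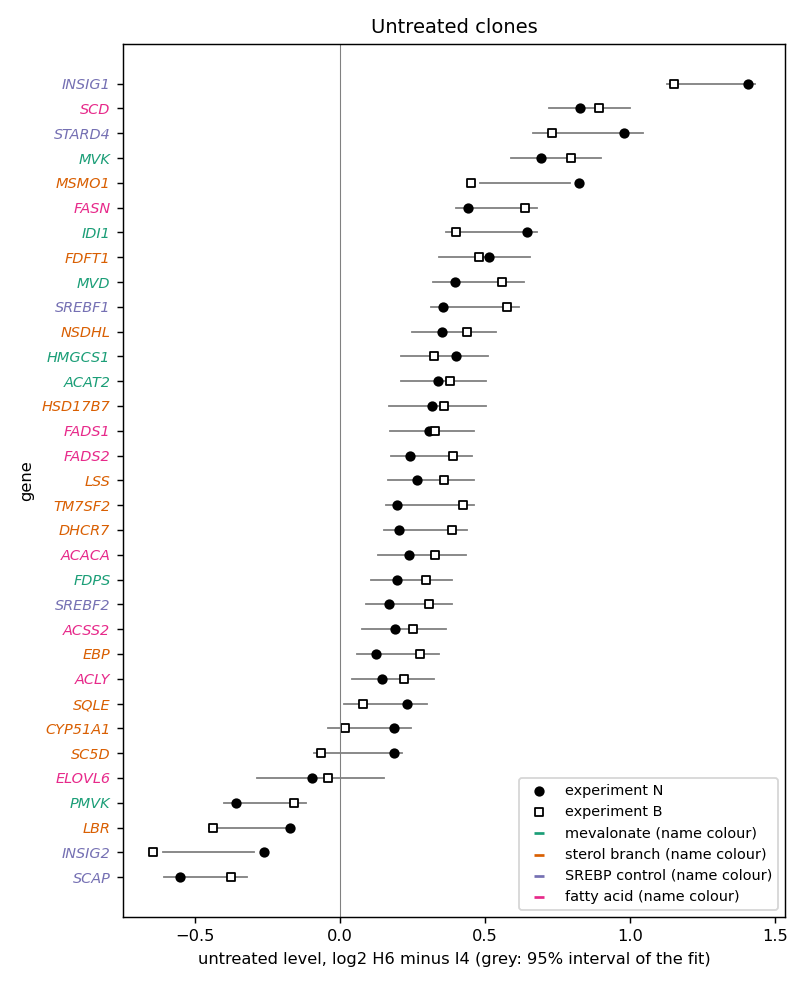
Difference in untreated level, H6 minus I4 on the log2 scale, for the 33 genes ordered by size; filled circles are experiment N, open squares experiment B and grey lines the 95% interval of the limma fit. Most genes lie to the right of 0, with INSIG1 at 1.41 and 1.15 farthest, while SCAP, INSIG2, LBR and PMVK lie to the left.

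TM7SF2 was also higher in untreated H6, at 1.24 times the I4 level (95% interval 1.12 to 1.38). With the larger response added, its level with doxycycline exceeded that of I4 by 0.95 log2 units in experiment N and 1.02 in experiment B, against 0.20 and 0.43 without. FASN widened from 0.44 and 0.64 to 0.72 and 0.83, and FDPS from 0.20 and 0.30 to 0.45 and 0.57. Such widening restates the clone difference in response, which did not pass for FASN or FDPS (limma adjusted p = 0.179 and 0.16). SCD had gaps of 0.83 and 0.89 without doxycycline and of 0.98 and 0.93 with it, and STARD4 of 0.98 and 0.73 without and 0.99 and 0.71 with it.

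Related lists, named for textbook roles, showed few calls in common to all comparisons. None of 12 isoprenoid branch genes (such as GGPS1 and the prenyl transferases) and none of 10 genes of SREBP processing and enzyme turnover (such as the proteases MBTPS1 and MBTPS2) was called in all 4. Of 20 genes of sterol uptake, transport, storage and efflux, ABCA1, the cholesterol efflux pump, rose in all 4 and GRAMD1B, a sterol transporter at membrane contacts, fell in all 4. For ABCA1 the authors' deposited table gives folds of 1.5 and 1.45 with I4 cells and of 1.34 and 1.27 with H6 cells (q from 0.00026 to 0.00577). GRAMD1B was lower by folds of 1.22 and 1.26 with I4 cells and of 1.26 and 1.28 with H6 cells, in N and B (q from 3.81e-05 to 0.000405 in the authors' deposited table). The background was 2.27% called higher and 2.65% lower in all 4.

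Of 31 genes of fatty acid elongation, activation and glycerolipid synthesis, 2 rose in all 4. In the authors' deposited table ME1, which supplies NADPH for lipid synthesis, had folds of 1.52 and 1.53 (I4 in N and B) and of 1.31 and 1.33 (H6). LPIN2, a phosphatidate phosphatase, had folds there of 1.34 and 1.35 (I4) and of 1.17 and 1.2 (H6). Of 24 fatty acid oxidation genes, the 21 of at least 1 RPKM had 6, 4, 4 and 2 called higher and 0, 1, 0 and 1 lower (I4 and H6 in N, then in B), where all genes of at least 1 RPKM had 10.4%, 9.77%, 10.1% and 4.93% called higher and 12.6%, 10.5%, 9.02% and 5.35% lower. Their medians were 0.12, 0.08, 0.08 and 0.04, above the median of all genes in each comparison. Of 12 regulators, 2 rose in all 4: in the authors' deposited table PPARG, the nuclear receptor of lipid storage, had folds of 1.39 and 1.26 (I4 in N and B) and of 1.23 and 1.2 (H6). CREB3L1, a membrane-bound factor cut by the same proteases as SREBP, had folds there of 1.89 and 2.07 (I4) and of 2.01 and 1.85 (H6).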

How the data were processed

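Poly(A)-enriched RNA from 23 libraries was sequenced, with a kit keeping both strands in experiment N and a strand-specific kit in B, per the labels' protocols. The submitters' processing notes name hg38. The aligner, counter, annotation and test were not given in the sources used here. From the authors comes a single deposited table, with 3 values for each of 4 comparisons: a score for level (the larger group mean, read from its values as RPKM), a score that is a signed fold, and a q-value. Counts per library were not used here, so the authors' q-value under 0.05 served in place of a count model.

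Limma 3.58.1 in R 4.3.3 (trend on level, Benjamini-Hochberg adjustment over all genes) was fitted to the 4 log2 folds of 10752 genes. Those genes had a mean level of at least 1 RPKM, and the fit had clone as a term and 2 residual degrees of freedom. A run on simulated folds covered the clone difference only, and its outcome is not given here. Untreated levels were compared between clones within each experiment. The experiment letter pairs the clones by passage, centre and kit, per the labels, so a fit with experiment as a block was an alternative. Wells are separate cultures of 1 clone. The limma p-values of the folds measure the spread between these experiments, shared in part over all genes. The main fit drew 3.66 prior degrees of freedom from all genes, and the block fit 22.5 beside 1 residual degree of freedom. The p-values of the untreated levels took their error wholly from the trend over all genes of like level. The 21463 rows include 27 with date-like names, none of them a member; 21376 names matched GENCODE release 29.

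Every comparison's values are given for members called in at least 3 comparisons or passing the limma test of the average or of the clone difference, and for related genes called in all 4, except a withheld item that is not reported here. Others (SREBF2, MVD, SC5D, FDPS, INSIG1, LBR, SCD, STARD4 and MVK) were singled out after their values were seen. Members and lists were chosen with earlier results of these data known.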

Additional observations from a re-analysis of the deposited data

Results flagged for a closer look

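TM7SF2 responded more to doxycycline in H6 than in I4, by 0.671 log2 units, and this difference passed the limma test (adjusted p = 0.026; 0.0507 without the I4 comparison of experiment N). PARG was also induced more strongly in H6, at folds of 2.15 and 1.99 against 1.35 and 1.4 for I4 in the authors' deposited table, and its part in this result was not tested.

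FDPS had folds above 1 in both H6 comparisons and below 1 in both I4 comparisons, with a difference of 0.258 log2 units. That difference did not pass the limma test (adjusted p = 0.16; 2.55e-06 with experiment as a block).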

How the results depend on the processing

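Errors rest on the authors' q-values or, for the limma fits of folds, on the spread between 2 experiments shared in part over all genes. For untreated levels they rest on the trend over all genes. The depth behind single genes limits the low ones such as ELOVL6 and STARD4. No paired analysis by well was possible because the deposited values are for groups and not for wells. The main fits of the folds had no term for experiment, which served as a replicate block in an alternative only. That block fit left 1 residual degree of freedom, so its error came mostly from the spread shared over all genes. Under the block the members passing went from 12 to 27 for the average effect and from 1 to 11 for the clone difference, and all genes passing from 3680 to 6906 and from 92 to 2609. Leaving out 1 comparison at a time gave 7 to 11 members for the average (7 without H6 in experiment N) and 0 to 1 for the clone difference (0 without I4 in experiment N), for which all genes passing ranged from 42 to 158. A minimum of 0.1 RPKM and no trend on level gave 58 and 48 such genes. No member's called direction reversed under any alternative run. Counts of members called at a q-value under 0.01 or at 5 RPKM and above stayed within 1.5 times, and centring brought the untreated count from 29 to 28. List medians moved by less than their spread over the 4 comparisons when centred or restricted to members of at least 5 RPKM.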
